A study of Mus musculus with 18 samples.

Results

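The cells described here were E8 mouse embryonic stem (ES) cells with a knockout (KO) of Kdm6a, compared between day 15 (D15) and day 7 (D7) of nondirected differentiation. Libraries were chosen by their labels alone, which gave 2 RNA-seq libraries at D15 and 2 at D7, or 4 of the 18 libraries in the series. The 4 E8 wild-type (wt) libraries, 2 on each day, were used beside them to ask whether a change with time was also seen without the knockout. E8 is a female hybrid line from a C57BL/6J (BL6) × Mus castaneus (cast) cross, and the labels give all 8 libraries the same treatment. According to the methods, the E8 KO is a single clone in which both copies of the Kdm6a promoter were deleted, so clone and genotype cannot be told apart. The labels do not name the clone. ES cells were kept on mouse embryonic fibroblast feeders with LIF, and differentiation began by withdrawing LIF, letting embryoid bodies form in non-adherent dishes and later plating them on gelatin. Days are given as the labels give them and could not be checked otherwise, since the methods describe E8 RNA-seq on other days than these. No label says whether the 2 replicates of a day came from separate cultures, so p-values measure only the spread between these libraries, which may be technical.

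Kdm6a encodes an X-linked demethylase that removes the repressive mark H3K27me3 from histones, and in females it is expressed from both X chromosomes. Embryoid bodies form an outer layer of primitive endoderm that matures into visceral endoderm, which takes up and secretes proteins much as fetal liver does, and parietal endoderm, which lays down a thick basement membrane of laminin and type IV collagen. Their inner cells pass through a stage like the primitive streak, where mesoderm arises, before they turn into heart, blood and vessel cells. Trophoblast, the outer lineage of the placenta, is rarely formed by wt ES cells.

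The unit is TPM (transcripts per 1000000), which corrects for gene length and sums to 1000000 in each library. Since TPM keeps no read number, the depth of these libraries is unknown. Differences between days are on the log2(TPM + 1) scale, which understates the change of low genes. Kdm6a (X:18162575-18279936, mm10) was at 0.00578 to 0.0319 TPM in the 4 KO libraries and at 46.7 to 47.8 TPM in the 4 wt libraries, which fits the genotype labels. Transcripts of the pluripotent state were high in every library. Pou5f1, a core factor of that state, was at 848 and 846 TPM in KO at D7 and at 1009 and 984 TPM at D15, and at 1625 to 2044 TPM in wt. In the 4 KO libraries 13 of 15 macrophage markers, 12 of 18 red cell and megakaryocyte markers and 8 of 12 skeletal muscle markers were under 1 TPM. Other lists of differentiated cells were better represented, with 1 of 20 endothelial, 0 of 16 epithelial, 3 of 31 visceral endoderm, 8 of 27 stromal matrix, 9 of 28 cardiac sarcomere and 10 of 20 neuronal members under 1 TPM in all KO libraries. Rows of short RNA genes such as microRNA and snoRNA, whose length makes their TPM sensitive to few reads, took 24.9% to 25.6% of TPM in KO at D7, 29.4% to 29.8% at D15 and 26.5% to 29.9% in wt. Several chromosomes of the KO libraries, 1, 12, 19 and X, stood apart from the wt libraries in level or allele balance, and their values are given after the gene groups.

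Of the extraembryonic endoderm genes tested 33 of 42 fell in KO cells between the 2 days, while 7 of 18 primitive streak genes, 8 of 15 endothelial genes and 6 of 9 trophoblast genes rose, with 2 endothelial genes lower. The lists were chosen with earlier results of these data known, so these counts describe them and test nothing. Among the risen genes 1 streak gene and 3 endothelial genes reached the filter on low values in 2 libraries alone, and some fallen endoderm genes in few libraries. More genes passed the test than in wt cells. Of 12452 genes tested, 761 (6.11%) were called at an FDR of at most 0.1 and a difference of at least 2-fold, 425 (3.41%) higher and 336 (2.7%) lower at D15. In wt cells 175 genes (1.41%) were called, 73 (0.586%) higher and 102 (0.819%) lower. A test of the difference between the KO change and the wt change called 903 genes (7.25%), 484 (3.89%) more positive in KO and 419 (3.36%) more negative. Without the fold minimum 9451 genes (75.9%) passed in KO, 58.6% of genes passed in wt and 67.2% in the test of the difference, and the libraries of the 2 days did not overlap in 10856 genes (87.2%), so the fold minimum sets the count. The gap between the 2 replicates of a day was small, with a median of 0.046 on the log2 scale at D7 and 0.035 at D15 over 8811 genes at a mean of at least 10 TPM. The share of calls that were higher was 55.8%, but 63.7% after rescaling to the median autosomal gene and 68.4% without short RNA rows, so the balance of higher and lower calls depends on the scale. Large changes were few, with 51 genes lower and 31 higher by at least 2 on the log2 scale.

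**Figure D1:**
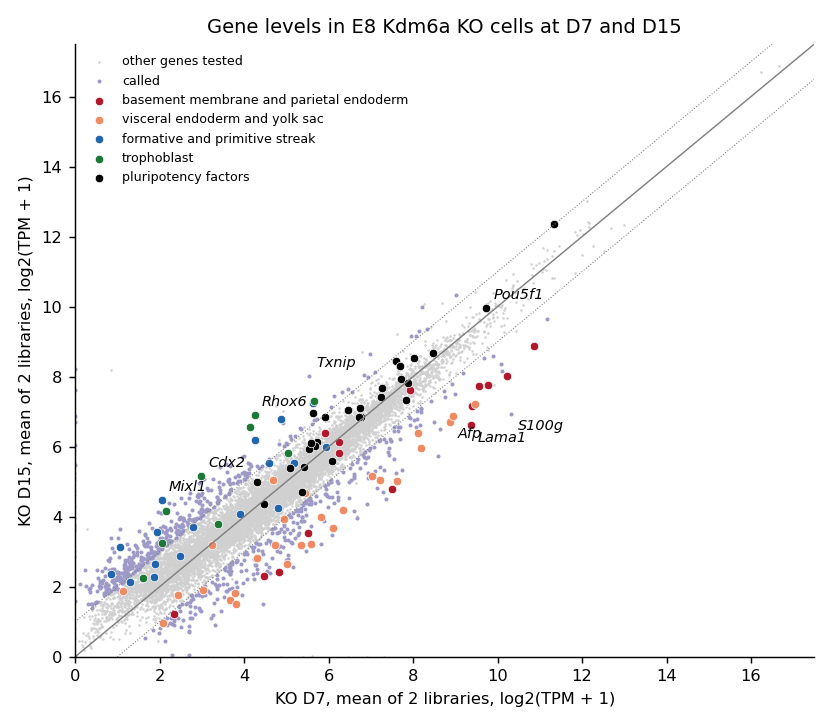
Mean expression of each gene in KO cells at D7 (horizontal axis) and at D15 (vertical axis), both as log2(TPM + 1), each point a gene tested, with a solid line for equal levels, dotted lines at 2-fold and members of 5 lists in colour. Of the 12452 genes, the 425 called higher at D15 lie above the solid line and the 336 called lower lie below it.

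The lower genes mostly fell toward the wt level. In 287 of the 336 genes lower at D15 (85.4%), every wt library of either day was still below both KO D15 libraries, against 43.8% of all genes tested, and in 16 every wt library was above them. Of the 425 higher genes, 222 (52.2%) ended above every wt library and 79 (18.6%) below every wt library, against 43.8% and 25.8% of all genes tested. Pearson correlations of log2(TPM + 1) across genes, which are not independent replicates, were 0.942 to 0.946 between KO libraries of the 2 days, 0.858 to 0.882 between KO D7 and wt, and 0.907 to 0.926 between KO D15 and wt.

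Among the lists, which were chosen with earlier results of these data known, genes of extraembryonic endoderm made up the clearest fall. Over the list of basement membrane and parietal endoderm genes and the list of visceral endoderm and yolk sac genes together, 33 of 42 members tested (78.6%) fell from D7 to D15 in KO and none rose. In wt cells 2 of the 42 fell and none rose. The test of KO against wt called 32 members more negative in KO and 1 more positive. The summed level of the members tested was 10010 and 9873 TPM at D7, 1.00% and 0.987% of all TPM, and 2626 and 2629 TPM at D15, while the wt libraries held 738 to 801 TPM. The median member was 4.12 times as high at D7 as at D15, with quartiles of 2.67 and 5.00. Of the 33 fallen members 5 (Thbd, Apoa4, Hnf4a, Foxa1 and Ihh) reached the filter in fewer than 4 libraries, those of KO D7 above all, so that their entry into the test depended on their high level there. At D15 both KO libraries were still above every wt library in 37 of the 42 members, and in 43.8% of all genes tested. In these bulk libraries fewer endoderm cells and less endoderm RNA per cell cannot be told apart.

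Laminin and type IV collagen chains were among the basement membrane genes that fell. Lama1, the α chain of the first laminin of the embryo, was at 666 and 652 TPM in KO at D7 and at 95.7 and 97.4 TPM at D15, against 10.5 to 12.8 TPM in wt. Both D7 libraries lay far above both D15 libraries, and the difference was −2.76 ± 0.06 (SE; 2 libraries a day; limma, adjusted p = 1.4e-07). Its partner chains Lamb1 and Lamc1 were at 872 and 862 TPM and at 761 and 752 TPM at D7, and at 211 and 218 TPM and at 211 and 213 TPM at D15. The 3 laminin chains thus fell together but not equally, by 2.76, 2.01 and 1.83 on the log2 scale. Col4a1, a type IV collagen chain, was at 1176 and 1201 TPM at D7 and at 258 and 255 TPM at D15, and its neighbour Col4a2 was at 662 and 672 TPM and then at 142 and 143 TPM. In wt both collagens were between 7.74 and 24.3 TPM, and neither was called with time. Sparc, a matrix protein abundant in parietal endoderm, was at 1893 and 1804 TPM at D7 and at 458 and 472 TPM at D15.

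Of the 15 members of the basement membrane and parietal endoderm list, all tested, 11 fell (73.3%, against 2.7% of all genes tested) and none rose. The median of the list was −1.99, against −0.01 over all genes tested. Pth1r, the receptor through which parathyroid hormone-related protein promotes parietal endoderm, fell from 180 and 179 TPM to 25.6 and 27.5 TPM. Sox7, a transcription factor of early endoderm, fell from 21.3 and 21.3 TPM to 4.07 and 3.76 TPM. The 4 members that were not called, Lama5, Nid1, Nid2 and Hspg2, are also part of basement membranes outside endoderm. Lama5 was at 58.9 and 59.7 TPM at D7 and at 83.8 and 81.7 TPM at D15, and Hspg2 was at 73.9 and 76.2 TPM and at 70 and 68.1 TPM. In wt Lama5 was at 57.3 to 63.7 TPM and Hspg2 at 43.2 to 54.5 TPM.

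Visceral endoderm genes moved in the same direction. Afp, α-fetoprotein, a serum protein of the fetus, was at 475 and 463 TPM at D7 and at 103 and 106 TPM at D15, a difference of −2.16 ± 0.04 (SE; limma, adjusted p = 1.4e-07), and wt libraries were at 0.984 to 1.58 TPM. Ttr, which carries thyroid hormone, was at 195 and 197 TPM and then at 32.3 and 31.1 TPM. Apob, the structural protein of lipoprotein particles, went from 69.3 and 66 TPM to 11.7 and 12 TPM, and Rbp4, the carrier of retinol, from 278 and 275 TPM to 82.3 and 84.4 TPM. In each of these genes the lowest D7 library was above the highest D15 library.

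The endocytic receptors fell with the secreted proteins. Cubn (cubilin) was at 82.2 and 76.9 TPM at D7 and at 17.4 and 17.2 TPM at D15, its partner Amn (amnionless) at 144 and 154 TPM and then at 32.8 and 31.9 TPM, and Lrp2 (megalin) at 56.5 and 54.4 TPM and then at 15 and 15.1 TPM. Dab2, an adaptor that links such receptors to clathrin, was at 299 and 286 TPM at D7 and at 59.9 and 63.4 TPM at D15. All these genes were under 8 TPM in wt. Of the 31 members of the visceral endoderm and yolk sac list 27 were tested, with a median of −1.96. Of the 27, 22 fell (81.5%, against 2.7% of all genes tested) and none rose. Apoa2, Apoc2, Trf, Foxa3 and Ttpa were tested and not called, and Alb, Fga, Fgg and Vtn were under the filter on low values.

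The transcription factors that specify endoderm fell as well. Gata4 was at 136 and 135 TPM at D7 and at 38.7 and 38.4 TPM at D15, a difference of −1.79 ± 0.03 (SE; limma, adjusted p = 1.4e-07), and Gata6 was at 59.4 and 57.3 TPM and then at 13.3 and 13.9 TPM. Sox17 went from 46.9 and 47.2 TPM to 8.61 and 7.97 TPM, Foxa2 from 39.3 and 40.6 TPM to 8.2 and 8.18 TPM, and Hnf4a from 12.9 and 12.6 TPM to 2.57 and 2.49 TPM. The replicates of a day differed by little in each of them and the days did not overlap. Foxa2 also fell in wt, from 2.45 and 2.96 TPM to 0.392 and 0.331 TPM. The same held for Spink1, a trypsin inhibitor secreted by endoderm, which was at 719 and 683 TPM in KO at D7 and at 152 and 145 TPM at D15, and in wt at 11.7 and 9 TPM and then at 1.31 and 1.02 TPM. Its change did not differ between KO and wt beyond the spread (difference of the changes 0.15 ± 0.16 SE, limma, adjusted p = 0.43). Of the other fallen members Foxa2 and Thbd fell more in KO by under 2-fold and the rest by more than that.

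**Figure D2:**
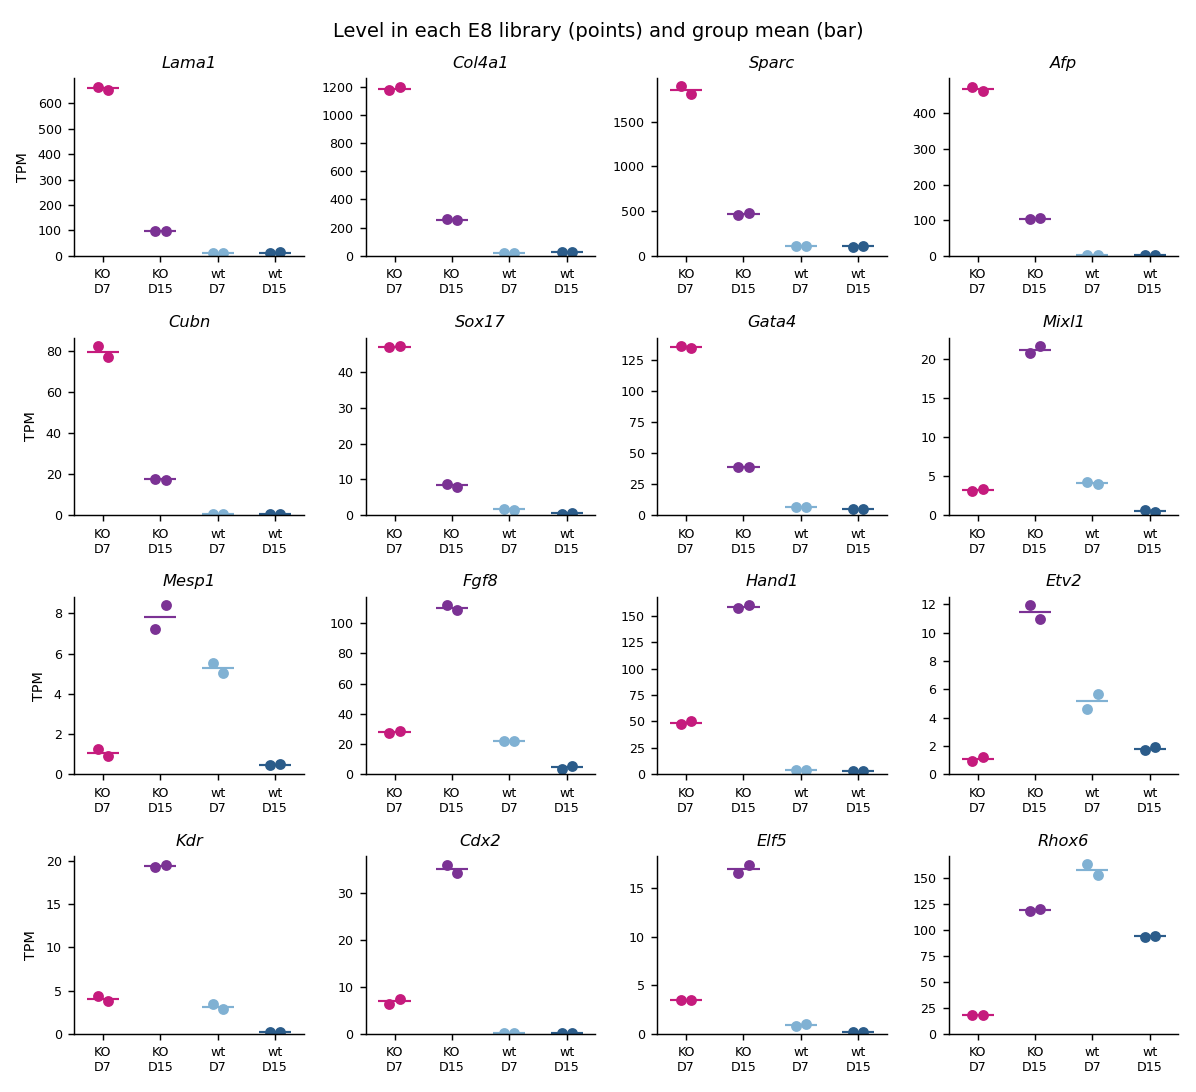
Expression in TPM (vertical axes, from 0) of 16 genes in each library, with wt and KO at D7 and D15 side by side, points for the 2 libraries of a group and a bar at their mean. The first 7 panels, Lama1 to Gata4, hold endoderm genes, highest in KO at D7 (Lama1 at 666 and 652 TPM), and the other 9, Mixl1 to Rhox6, hold streak, mesoderm, vessel and trophoblast genes, higher in KO at D15 than at D7 (Cdx2 at 35.9 and 34.1 TPM).

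Short stretches of the promoters of 6 of these fallen endoderm genes are shown with a match to TATAAA, the letters of a TATA box, or to AGATAA. The letters are from RefSeq on GRCm38.p6, read 5′ to 3′ on the strand of the gene, with capitals marking the match.

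Afp, chr5:90490654-90490713, plus strand: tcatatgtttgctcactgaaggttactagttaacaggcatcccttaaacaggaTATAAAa

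Apob, chr12:7977617-7977676, plus strand: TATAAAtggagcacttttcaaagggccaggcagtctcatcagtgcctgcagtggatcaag

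Rbp4, chr19:38124812-38124871, minus strand: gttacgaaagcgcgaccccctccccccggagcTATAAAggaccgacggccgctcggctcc

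Cited1, chrX:102252182-102252241, minus strand: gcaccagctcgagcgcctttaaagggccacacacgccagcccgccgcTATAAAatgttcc

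Foxa2, chr2:148045615-148045674, minus strand: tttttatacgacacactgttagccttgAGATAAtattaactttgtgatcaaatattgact

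Hnf4a, chr2:163506778-163506837, plus strand: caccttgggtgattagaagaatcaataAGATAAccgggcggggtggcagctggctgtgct

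The first base of TATAAA lay 7 bases before the annotated start in Afp, 13 in Cited1, 28 in Rbp4 and 60 in Apob. AGATAA, the core letters that GATA factors bind, began 52 bases before the start in Hnf4a and 183 bases before it in Foxa2. A promoter entry was found for 23 of the 33 fallen endoderm genes, 32 promoters in all, and the 250 bases before the start were searched. TATAAA on the sense strand was present in 15.6% of the 32 promoters and in 7.59% of all 32851 promoters, and AGATAA on either strand in 6.25% against 9.99%. The 5 promoters with TATAAA belong to Afp, Apob, Rbp4 and Cited1, with Cited1 counted at separate starts. The CArG box was in 3.12% against 1.47% and the MEF2 box in 6.25% against 2.92%. These are descriptions of letters in a window and were not tested.

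The 12 largest falls in KO under the rule for named genes held 3 members of the endoderm lists (Lama1, Pth1r and Ttr) and 9 other genes. S100g, a calcium-binding protein of absorptive cells, was at 1267 and 1291 TPM at D7 and at 117 and 124 TPM at D15, against 6.19 to 8.69 TPM in wt, the largest of the 12 (−3.39 ± 0.09 SE, limma, adjusted p = 4.5e-07). Pga5, a pepsinogen, fell from 166 and 163 TPM to 22.1 and 21.3 TPM, and Srgn, a proteoglycan of secretory granules, from 394 and 373 TPM to 53.4 and 52 TPM. Hs3st1, a heparan sulfate sulfotransferase, fell from 101 and 102 TPM to 14.4 and 14.8 TPM, and Foxq1, a forkhead transcription factor, from 67.4 and 65 TPM to 9.84 and 10.5 TPM. The KO levels at D15 were above every wt library in all 5 genes. Hkdc1, a hexokinase-like enzyme, and Gdpd5, a phosphodiesterase, fell by 2.58 and 2.59 on the log2 scale. Eif3j2, which has a near-identical copy, and 1010001N08Rik, a noncoding RNA, were also among the 12, at 5.56 and 5.5 TPM and at 22.2 and 19.2 TPM at D7, and at 0.00424 and 0.066 TPM and at 1.41 and 2.22 TPM at D15. How reads of Eif3j2 and its copy were divided is not given in the sources used here.

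Genes of mesenchyme that parietal endoderm also expresses, and that feeder fibroblasts share, fell in part. Vim (vimentin) was at 821 and 829 TPM at D7 and at 365 and 374 TPM at D15, and Pdgfra at 45.5 and 43.5 TPM and then at 10.6 and 10.4 TPM. Of 14 fibroblast and feeder markers 8 were tested, 2 fell (25%; these 2) and 2 rose (25%; Thy1 and Ly6a). Their summed level was 905 to 908 TPM at D7, 427 to 433 TPM at D15 and 91.5 to 118 TPM in wt, almost all of it Vim. Of the 14 markers 3, Fap, Dpt and Tcf21, were under 1 TPM in all 4 KO libraries, and each of the others reached 1 TPM in at least 1 of them. Col1a2, a collagen of fibroblasts, went from 8.54 and 8.82 TPM to 1.17 and 1.41 TPM. The part of feeder RNA in the fall of shared genes was not tested. Of 16 stromal matrix genes tested 3 fell (18.8%; Col1a2, Loxl2 and Ctgf) and 2 rose (12.5%). Over all genes tested 2.7% were called lower and 3.41% higher. Among the risen stromal matrix genes was Fn1 (fibronectin), at 287 and 279 TPM and then at 628 and 642 TPM. Acta2, the smooth muscle actin, fell from 97.2 and 94 TPM to 16.7 and 17.1 TPM, while Des (desmin) rose from 2.74 and 3.07 TPM to 7.08 and 7.81 TPM.

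Primitive streak genes moved the other way. Of 18 tested, 7 rose in KO (38.9%, against 3.41% of all genes tested) and none fell, with a median of 0.88, and in all but Fgf5 both D15 libraries were above both D7 libraries (17 of 18, or 94.4%, against 42.1% of all genes tested). In wt, 10 of the 18 fell and none rose, with a median of −1.07, and the test of KO against wt called 13 members more positive in KO. Mixl1, a homeobox gene of the streak, was at 3.01 and 3.28 TPM in KO at D7 and at 20.7 and 21.6 TPM at D15, a difference of 2.42 ± 0.08 (SE; limma, adjusted p = 9.2e-07). In wt it was at 4.26 and 4.03 TPM and then at 0.62 and 0.383 TPM. The KO libraries were slightly below wt at D7 and far above it at D15.

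Mesp1, which marks the mesoderm that forms the heart, was at 1.24 and 0.928 TPM in KO at D7 and at 7.24 and 8.41 TPM at D15, and in wt at 5.53 and 5.03 TPM and then at 0.452 and 0.501 TPM. Fgf8, a growth factor of the streak, was at 27.6 and 28.7 TPM and then at 112 and 109 TPM in KO, and at 22.2 and 22 TPM and then at 3.62 and 5.58 TPM in wt. Mesp1 crossed over, higher in wt at D7 and higher in KO at D15, while Fgf8 was slightly higher in KO at D7 already and far higher at D15. Evx1, Lefty1, Lefty2 and Msgn1 also rose in KO, and Msgn1 reached the filter through the D15 libraries alone. Lefty1 and Lefty2, secreted inhibitors of Nodal, stayed below wt at both days, at 76.7 and 68.4 TPM and at 152 and 150 TPM in KO at D15 against 276 to 314 TPM and 343 to 424 TPM in wt.

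T (brachyury), the best known marker of the streak, was not called in KO, at 46.9 and 46.9 TPM at D7 and at 66.2 and 67.3 TPM at D15. It was already well above wt, which was at 6.3 and 6.4 TPM at D7 and at 2.23 and 3 TPM at D15, where it fell. Eomes was just under the fold minimum, at 23.4 and 22.6 TPM and then at 44 and 46.5 TPM (0.95 ± 0.04 SE), as was Wnt3, at 5.78 and 5.95 TPM and then at 12.3 and 12.1 TPM (0.94 ± 0.05 SE). Lhx1, Cer1 and Gsc, genes of the anterior streak and of anterior endoderm, were at 2.24 to 6.97 TPM in KO on both days and were not called.

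Some genes of early mesoderm and its vessel derivatives rose, at low levels. Etv2, the factor that starts the blood and vessel program, was at 0.933 and 1.22 TPM in KO at D7 and at 12 and 11 TPM at D15, and in wt at 4.64 and 5.67 TPM and then at 1.74 and 1.9 TPM. Kdr, a receptor for VEGF, was at 4.33 and 3.82 TPM and then at 19.3 and 19.6 TPM in KO, and at 3.42 and 2.88 TPM and then at 0.246 and 0.18 TPM in wt. In Etv2 and Kdr, KO and wt ran in opposite directions. In wt 3 of the 15 endothelial genes tested fell and none rose, with a median of −0.04. Of 15 endothelial genes tested 8 rose in KO (53.3%, against 3.41% of all genes tested), with a median of 1.00. They were Etv2, Kdr, Tal1, Sox18, Cldn5, Pecam1, Plvap and Lmo2. The 2 that fell (13.3%, against 2.7% of all genes tested) were Flt1 and Sox7. Cdh5, a marker of mature endothelium, was low, at 0.869 and 0.583 TPM and then at 1.83 and 1.72 TPM. Emcn was the 1 member of the 20 under 1 TPM in all KO libraries, while Pecam1, Plvap and Cldn5 were among the risen genes. Tal1, Sox18 and Plvap reached the filter through the KO D15 libraries alone, and with a pseudocount of 5 in place of 1 only 2 of the 15 genes were called higher.

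Heart genes moved in both directions. Of the 6 cardiac transcription factors tested, Hand1, Hand2, Tbx20 and Isl1 rose (66.7%). Gata4 and Gata6, which are also expressed in endoderm, fell (33.3%). Over all genes tested 3.41% were called higher and 2.7% lower. Hand1 was at 47.9 and 50.2 TPM in KO at D7 and at 157 and 160 TPM at D15, against 2.82 to 4.59 TPM in wt, a difference of 1.67 ± 0.04 (SE; limma, adjusted p = 3.6e-07). Hand2 rose from 1.21 and 1.51 TPM to 8.03 and 8.68 TPM, and Tbx20 from 2.4 and 2.1 TPM to 9.69 and 9.46 TPM. Hand2, Tbx20 and Isl1 reached the filter through the KO D15 libraries alone, and Nkx2-5, Tbx5, Mef2c and Myocd did not reach it. With the filter at 4 libraries the median of the list turned from 1.34 to −1.79. Of 16 sarcomere and calcium handling genes tested 3 rose (18.8%; Tnni3, Ldb3 and Myl2) and 4 fell (25%; Myl3, Acta1, Mybpc3 and Csrp3). All 7 were low in KO, at 26.7 TPM or less, and Myl2 was listed at 0 in both D7 libraries. Myl3 fell from 26.7 and 25.9 TPM to 6.79 and 7.42 TPM.

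Most of the trophoblast genes tested rose. Of 15 members 9 were tested, 6 rose (66.7%, against 3.41% of all genes tested), none fell, and the median was 1.67. In wt none of the 9 was called, and 8 of the 9 were more positive in KO by the test of the difference. Cdx2, which sets up trophoblast and later the posterior embryo, was at 6.38 and 7.46 TPM in KO at D7 and at 35.9 and 34.1 TPM at D15, and at 0.0903 to 0.232 TPM in wt. Elf5, a factor that keeps trophoblast stem cells, was at 3.49 and 3.44 TPM and then at 16.6 and 17.4 TPM, and Gata3 at 3.15 and 3.13 TPM and then at 8.73 and 8.42 TPM. For these 3 genes the order was the same, with wt near 1 TPM or under at both days, KO D7 above it and KO D15 highest. Among genes of later placenta, Tpbpa and Prl3d1 were listed at 0 in all 4 KO libraries. In the whole list 6 members did not reach the filter and 5 were under 1 TPM in all KO libraries.

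Rhox6 and Rhox9, neighbouring homeobox genes on the X chromosome, were the other risen members of that list together with Hand1. Rhox6 was at 18 and 18.1 TPM in KO at D7 and at 118 and 120 TPM at D15, and in wt at 163 and 152 TPM and then at 93.6 and 94.1 TPM. Rhox9 was at 15.3 and 17.9 TPM and then at 94 and 93.2 TPM in KO, and in wt at 146 and 143 TPM and then at 85.3 and 90.2 TPM. Unlike Cdx2 and Elf5, they were lower in KO than in wt at D7 and above the wt libraries of the same day at D15. The 2 genes are close in sequence, so reads may be shared between them. Both lie in a part of the X where most genes held almost no cast reads in KO, described below. Their own cast share was 0.000 to 0.0131 in KO and 0.467 to 0.582 in wt. What this did to their level was not tested.

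**Figure D3:**
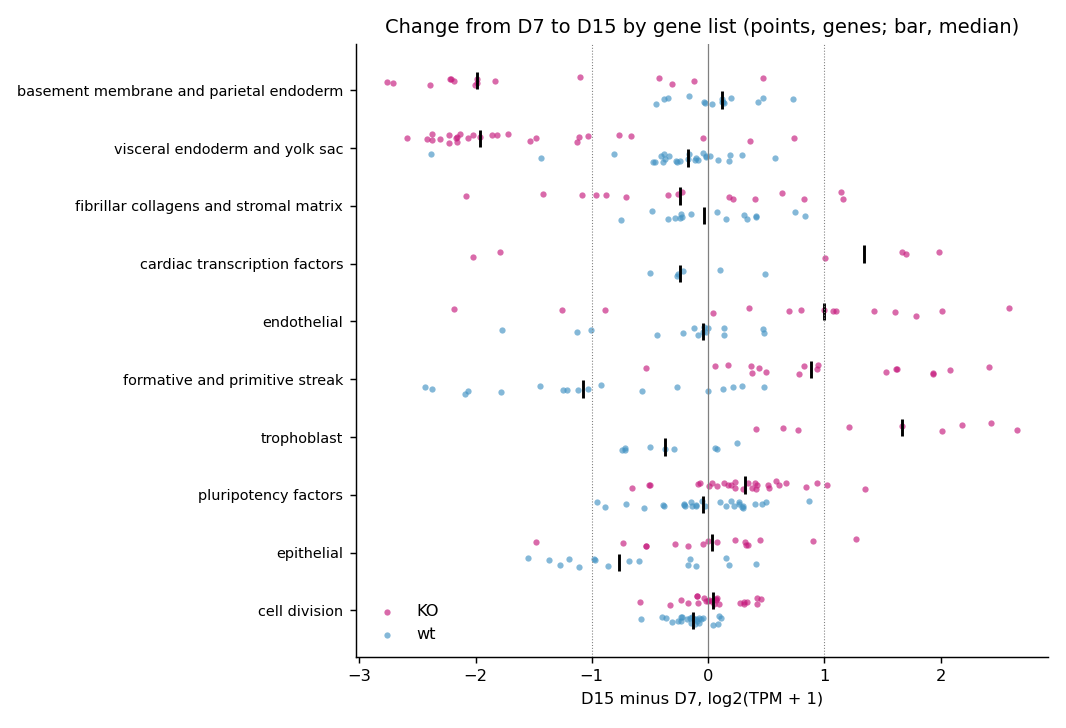
Difference between D15 and D7 on the log2(TPM + 1) scale (horizontal axis) for each tested member of 10 gene lists, KO and wt drawn apart, with a bar at the median and dotted lines at 2-fold. The 2 endoderm lists have medians of −1.99 and −1.96 in KO and lie near 0 in wt, while the streak list has a median of 0.88 in KO and −1.07 in wt.

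Pluripotency genes were mostly higher at D15 than at D7 but rarely passed the fold minimum. Of 28 tested 2 rose (7.14%, against 3.41% of all genes tested) and none fell, with a median of 0.32. In 22 of 28 (78.6%) both D15 libraries were above both D7 libraries, against 42.1% of all genes tested. Dppa5a, an RNA-binding protein of ES cells, rose from 2619 and 2521 TPM to 5317 and 5114 TPM, and Tcl1, a cofactor of AKT kinase, from 50.2 and 46.4 TPM to 126 and 123 TPM. Sox2 was at 195 and 192 TPM and then at 337 and 360 TPM, and Nanog at 268 and 253 TPM and then at 373 and 372 TPM, neither of them called. In 22 of the 28 genes every wt library was above both KO libraries of D15, against 25.8% of all genes tested. The summed level was 6360 to 6529 TPM at D7, 9880 to 10070 TPM at D15 and 16500 to 20700 TPM in wt.

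Among the other named rises, Txnip, an inhibitor of thioredoxin that responds to glucose, was at 47.1 and 43.7 TPM in KO at D7 and at 256 and 259 TPM at D15, inside or next to the wt range of 244 to 256 TPM. Asb4, a ubiquitin ligase subunit of the early vasculature and placenta, rose from 0.94 and 0.664 TPM to 9.98 and 9.11 TPM and fell in wt from 3.94 and 4.06 TPM to 0.31 and 0.224 TPM. Ndufa4l2, a mitochondrial protein induced by low oxygen, rose from 0.908 and 1.14 TPM to 10.1 and 8.94 TPM and fell in wt from 25.1 and 23 TPM to 4.67 and 4.89 TPM. Pygl, a glycogen phosphorylase, rose from 3.96 and 3.39 TPM to 19.5 and 20.8 TPM, and Rgs5, a regulator of G protein signalling in pericytes, from 0.796 and 0.873 TPM to 7.63 and 7.63 TPM. Rgcc, a cell cycle regulator, rose in KO from 2.85 and 2.97 TPM to 16.7 and 16.4 TPM and also in wt, from 12.7 and 12.1 TPM to 27.7 and 28.4 TPM.

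The top of the ranking by rise was held by short RNA rows. Mir1934, Mir92-2, Mir20a and Mir1938 were listed at 0 in both KO libraries at D7, Mir8114 was at 0.000298 and 0.000757 TPM, and Mir6357 was lower still. At D15 they were at 317 and 277, 209 and 182, 56.8 and 74.5, 46.1 and 40.3, 86.8 and 145, and 37.9 and 170 TPM, in the order Mir1934, Mir92-2, Mir20a, Mir1938, Mir8114 and Mir6357. No fold is given against 0. In wt 4 of these rows, Mir92-2, Mir20a, Mir1938 and Mir6357, were at or near 0 in 1 library of a day and among the higher values in the other, such as 128 and 0 TPM for Mir92-2 at D7. A poly(A) library is not designed to count microRNA. Gm12238 was at 17.1 and 0 TPM and then at 35.1 and 30.7 TPM, and without the D7 library at 0 its difference was 0.90 and was not called.

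Signalling genes moved in both directions. Of 24 members of the Wnt, BMP and TGF-β list tested 4 rose (16.7%), Wnt5a, Wnt5b, Sfrp2 and Bmp7. The 3 that fell (12.5%) were Wnt11, Nog and Fst. Over all genes tested 3.41% were called higher and 2.7% lower. Wnt5b reached the filter on low values in 2 libraries alone. Wnt5a, a ligand of the noncanonical branch expressed in the streak, rose from 3.29 and 3.05 TPM to 10.8 and 11.1 TPM, while Wnt11, a ligand of the same branch, fell from 14.9 and 14.8 TPM to 3.23 and 3.38 TPM. Fst (follistatin), an inhibitor of activin, fell from 157 and 153 TPM to 25.1 and 25.4 TPM. Each of these 3 genes differed in its change from wt. Of the germ layer genes that the study selected in its other line, 32 of 39 were tested. Of these 2 rose (6.25%; Kdr and Pyy) and 14 fell (43.8%). Of the 14, 12 also belong to the endoderm lists and the others are Maf and Nepn, so that list mainly repeats the endoderm fall.

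Other groups are set beside the 6.11% of all genes tested that were called. Of 24 cell division genes none was called (median 0.04), nor was any of 13 genes of PRC2 and the H3K27 demethylases (median −0.01), counts that in lists of this size lie near that background. In the second list Ezh2, the methyltransferase of that complex, was at 112 and 109 TPM and then at 111 and 114 TPM. Kdm6b, the other H3K27 demethylase, was at 34.4 and 34.3 TPM and then at 30.2 and 31 TPM. At the FDR alone many of these small differences pass, so the count rests on the fold minimum. Of 21 imprinted genes tested Mest, Phlda2 and Plagl1 rose (14.3%) and Nnat fell (4.76%). H19 and Igf2, neighbouring imprinted genes abundant in extraembryonic tissue, were not called, Igf2 at 248 and 245 TPM and then at 322 and 330 TPM against 1.99 to 2.88 TPM in wt. Of 11 interferon response genes 3 rose (27.3%; Irf1, Oasl2 and Bst2). Of 17 hypoxia and glycolysis genes 2 rose (11.8%, Aldoc and Adm) and 1 fell (5.88%, P4ha1). In wt 4 of the 17 fell and none rose. Of 10 immediate early genes 3 fell (30%; Fosb, Egr1 and Atf3). In wt 3 of the 10 fell and none rose, and the median was −0.48 in KO and in wt. The shares given for these small lists rest on 1 to 3 genes each. Over all genes tested 3.41% were called higher and 2.7% lower. Oasl2, Adm and Fosb reached the filter on low values in 2 libraries alone. Their entry into the test depended on those libraries.

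Xist, the RNA that coats the inactive X chromosome (X:103460366-103483254), was at 0.268 and 0.257 TPM in KO at D7 and at 0.401 and 0.523 TPM at D15, a difference of 0.21 ± 0.08 (SE; limma, adjusted p = 0.05) that is under the fold minimum. In wt it was at 5.63 and 6.03 TPM and then at 1.26 and 1.14 TPM, where it fell, and the changes differed by 1.85 (limma, adjusted p = 1.7e-05). All 4 KO libraries were below every wt library. Xist lies in the part of the X where most genes held almost no cast reads in KO, described below. None of the 12 genes tested in the list of the X inactivation centre and escape genes was called in KO. Over 454 X-linked genes tested the median difference was 0.06, with 20 higher (4.41%) and 10 lower (2.20%), and over 11979 autosomal genes it was −0.02, with 402 higher and 325 lower. Without short RNA rows the 2 medians were 0.14 and 0.07, so the sign of the autosomal median depends on the scale.

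The files hold separate columns that were read, from their names, as TPM of reads with BL6 or cast SNPs. Before scaling, the median autosomal ratio of the BL6 to the cast column was 0.211 to 0.254 over the 8 libraries. The columns were thus far from equal, and which of them holds which allele was not tested. All allele names given here rest on that reading. Shares are given after scaling each library so that the median autosomal gene has equal shares. The median share of cast over 349 X-linked genes was 0.000, 0.000, 0.001 and 0.000 in the KO libraries, and 0.460 to 0.471 in wt. In KO it was 0.000278 higher at D15 (two-sided exact permutation test, p = 1). With 2 against 2 libraries that test cannot go below 0.333, and with the median at 0 it cannot show a fall, so it says nothing about stability. The balance was not the same along the chromosome. Over the 45 genes up to Cask, which lies at X:13517080-13851367, the median share of cast was 0.471 to 0.483 in KO and 0.467 to 0.502 in wt. Over the 304 genes beyond it the share was 0.000 in every KO library, and 259 of them (85.2%) were under 0.05 in all KO libraries against 11 in all wt libraries. Cask itself was at 0.477 to 0.542 in KO, and the next gene with reads, Maoa at X:16619698-16687818, was at 0.000 in all 4 KO libraries and at 0.480 to 0.582 in wt. Kdm6a lies beyond this edge, and so do Xist, Rhox6 and Rhox9.

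Total levels of X-linked genes differed from wt in the same 2 stretches. On the log2 scale the median gene up to Cask was 0.35 above wt at D7 and 0.37 above at D15 (41 genes at a mean of at least 10 TPM), and the median gene beyond Cask was 0.71 below wt at D7 and 0.66 below at D15 (269 genes). Between D7 and D15 in KO the median gene up to Cask was 0.23 lower (−0.23) and the median gene beyond Cask differed by 0.01. Of the genes beyond Cask 20 kept a share of at least 0.2 in all KO libraries, and 4 of them, Rhox5, Cul4b, Gla and Nup62cl, were near 1 in wt as well. Others among the 20 were intermediate, such as Bex1 at 0.456 to 0.470 in KO and 0.634 to 0.658 in wt. The share moved between the days by over 0.2 in 2 genes beyond Cask. Pnck went from 0 to 0.265 and 0.263 while its level rose from 3.25 and 3.48 TPM to 8.99 and 9 TPM, and the row SlcUbl4a went from 0 and 0 to 1.000 and 1.000, with 0.765 to 1.000 in wt, while its level went from 20.9 and 19.1 TPM to 9.34 and 11.8 TPM. The cause of the edge and of the low cast share was not tested, and clone and genotype cannot be told apart in it.

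**Figure D4:**
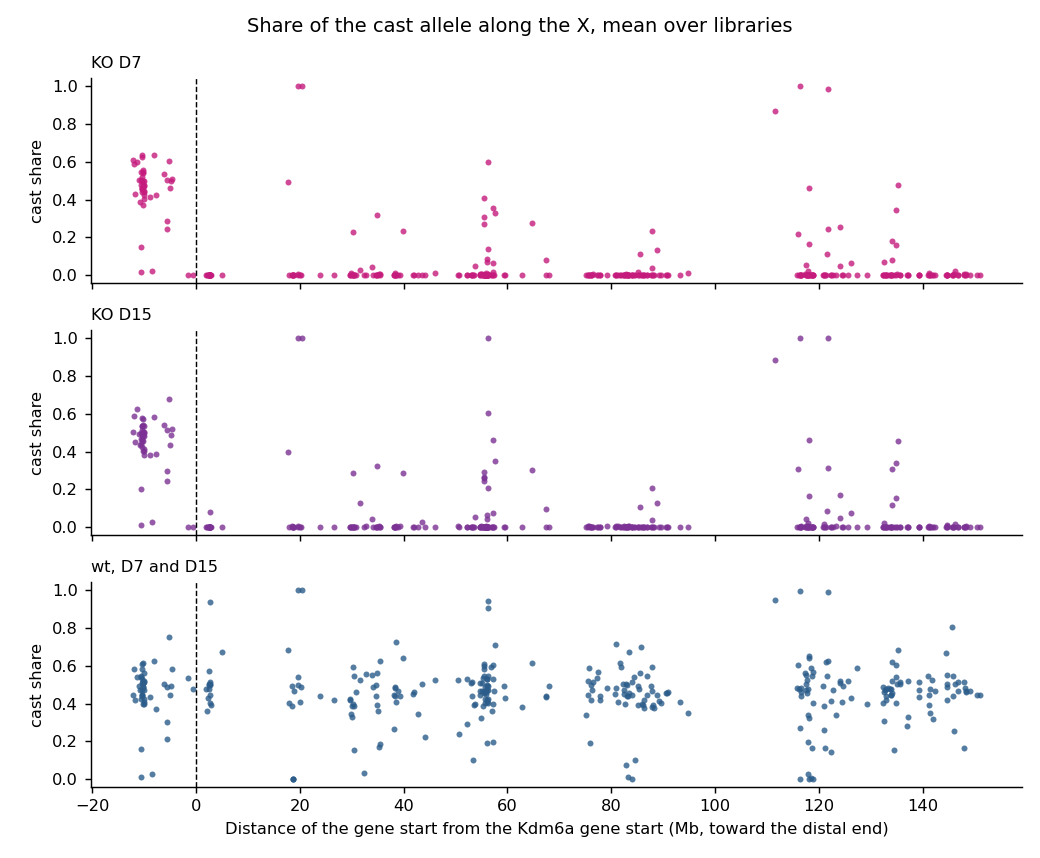
Share of the cast allele for each X-linked gene (vertical axis, from 0 to 1) by distance in Mb from the start of Kdm6a (horizontal axis), as the mean over the libraries of KO at D7, KO at D15 and wt of both days, with a dashed line at Kdm6a. In KO on both days genes up to Cask, left of the dashed line, have a median of 0.471 to 0.483 and most genes beyond Cask are at 0, while wt genes have a median of 0.460 to 0.471 over the chromosome.

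Chromosome 1 was the exception among the autosomes. Over 469 genes at a mean of at least 10 TPM on chromosome 1 the median difference between D15 and D7 in KO was 0.17, and on the other autosomes it ranged from −0.13 (chromosome 19) to −0.01 (chromosome 14). The 4 ways of pairing a D15 with a D7 library gave 0.16 to 0.19 for chromosome 1. On it 74.4% of the genes were higher at D15, against 41% of 7855 genes on other autosomes, and the median was above 0 in each of 10 stretches of 20 Mb with 12 to 77 genes, from 0.0331 to 0.269. Both allele columns showed the same order, with 0.02 on chromosome 1 against −0.22 to −0.09 on other autosomes in BL6 reads and 0.16 against −0.11 to 0.00 in cast reads, while the median cast share on chromosome 1 stayed at 0.490 to 0.494. In wt the median of chromosome 1 was 0.03, within the range of the other autosomes. Against wt, the median gene of chromosome 1 was 0.29 higher in KO at D7 and 0.45 higher at D15.

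Of the 677 genes tested on chromosome 1, 40 (5.91%) were called higher and 13 lower. Without chromosome 1, 385 genes were higher (3.27%) and 323 lower. Mixl1, Lefty1, Lefty2, Rgs5 and Des among the risen genes lie on it, and so do Ihh and Atf3 among the fallen ones. The differences of the named risen genes, such as 2.42 for Mixl1 and 1.63 for Lefty2, were larger than the shift of the chromosome. Chromosome 19 was higher in KO than in wt by 0.52 at D7 and 0.47 at D15 with no rise between the days. The cause of these shifts was not tested.

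**Figure D5:**
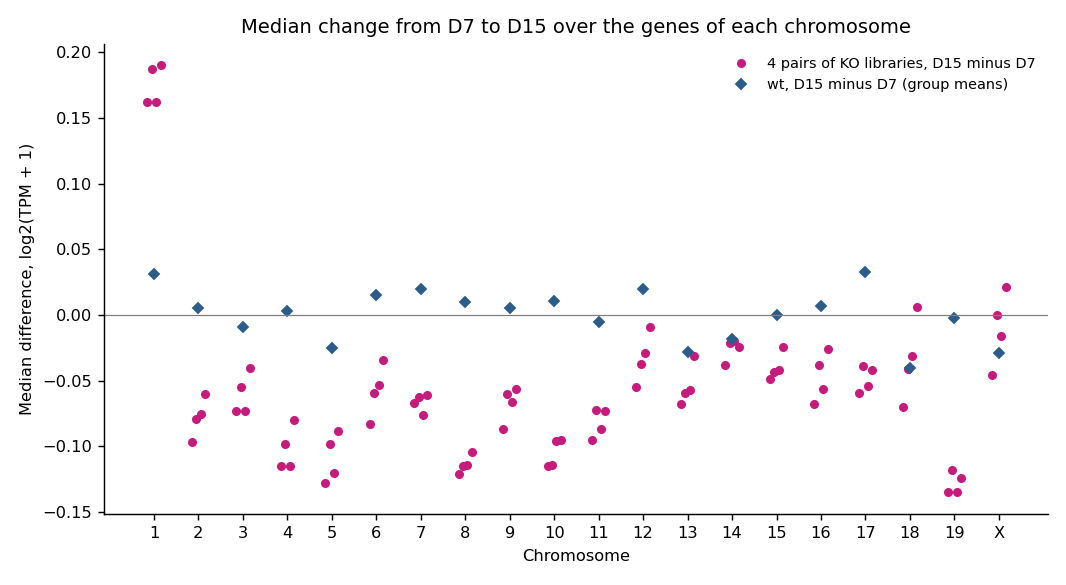
Median difference between D15 and D7 on the log2 scale (vertical axis) for genes at a mean of at least 10 TPM on each chromosome (horizontal axis), with a point for each of the 4 pairs of KO libraries and a diamond for wt. Chromosome 1 is at 0.16 to 0.19 in the KO pairs and at 0.03 in wt, above all other chromosomes in KO.

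Calls in the remaining lists are set beside the 3.41% of all genes tested that were called higher and the 2.7% called lower. Of 16 epithelial genes tested Cldn3 rose and Cldn6 fell, while Krt8 and Krt18, keratins abundant in endoderm and trophoblast, were at 454 and 478 TPM and at 889 and 872 TPM at D7 and at 283 and 277 TPM and at 605 and 608 TPM at D15, without a call, far above the wt range of 14.6 to 82.5 TPM. In wt 5 of the 16 epithelial genes fell and none rose. Of 11 neuronal genes tested Syp rose (9.09%), and Tubb3 and Gap43 fell (18.2%). Of 7 neural progenitor genes tested Sox3 rose, from 2.77 and 3.1 TPM to 8.4 and 8 TPM. Of 39 Hox genes 4 passed the filter, and Hoxd9 rose from 1.53 and 1.76 TPM to 6.23 and 6.68 TPM. Of 9 regulators of epithelial to mesenchymal transition Vim fell, and of 2 skeletal muscle genes Actn3 rose. None of 3 red cell and megakaryocyte genes and none of 2 macrophage genes tested was called.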

How the data were processed

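Poly(A) RNA-seq libraries of E8 cells were read as single ends. The authors deposited TPM per gene in several columns, whose meaning is not stated in the sources used here. From their names and relations they were read as reads placed on the BL6 genome, on the cast genome or on either, and as reads with BL6 or cast SNPs. Per the labels' processing notes, Bowtie2 2.4.5, TopHat2 2.1.1 and mm10 were used. Gene annotation, strand setting and depth are not given in the sources used here, so no counting interval is given. The deposited TPM on the BL6 genome was taken as diploid expression, and rows sharing a symbol were summed (24883 rows, 24346 symbols). Values as log2(TPM + 1) were fitted with limma 3.58.1 in R 4.3.3 over the 8 E8 libraries, with a mean for each group and a trend in the prior variance. Only genes that reached 2.5 TPM in 2 or more libraries were tested. Calls needed a Benjamini-Hochberg FDR of at most 0.1 over all 12452 genes and at least 2-fold. Chromosomes came from GENCODE and RefSeq, which matched all but 83 symbols. Named genes were Kdm6a and Xist, the 12 largest rises and 12 largest falls at 5 TPM or more without overlap, the 6 largest differences from wt each way, and members of 28 lists. Members and lists were chosen with earlier results of these data known. The fit was checked on simulated data. Other pseudocounts, filters, scalings, a block by replicate number and leaving out each library were tried. The other 10 libraries of the series, of another cell line, were not used.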

Additional observations from a re-analysis of the deposited data

Results flagged for a closer look

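Each result here was singled out because the change from D7 to D15 differed between KO and wt by the test of that difference. It was more positive in KO for 484 genes and more negative for 419. The changes below are differences of log2(TPM + 1) changes, KO minus wt, and no explanation was tested for any of them.

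Among streak, mesoderm and early vessel genes Mixl1 was at 4.20, Mesp1 at 4.17, Fgf8 at 4.0, Kdr at 3.78 and Etv2 at 3.72. In each of the 5 genes both KO libraries were higher at D15 than at D7 and both wt libraries were lower. Asb4 at 4.53 and Ndufa4l2 at 4.49 had the same pattern. Rhox6 at 3.40 and Rhox9 at 3.14 were higher at D15 in KO and lower in wt, as was Pygl at 2.84. For Txnip, at 2.49, wt hardly moved. Rgs5 was at 2.82, Cdx2 at 2.11, Xist at 1.85 and Rgcc at 1.05, the last 2 being under the fold minimum with a pseudocount of 5.

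Of the 419 genes with a more negative change, 264 were called lower in KO at D15. The genes named next fell in KO from a D7 level above wt. S100g was at −3.18, Hkdc1 at −2.96, Gdpd5 at −2.92, Lama1 at −2.88, Pga5 at −2.87, Hs3st1 at −2.83, Srgn at −2.48, Pth1r at −2.37, Ttr at −2.32 and Foxq1 at −1.85. In wt none of these 10 genes was called with time. The noncoding 1010001N08Rik was at −3.20 and Eif3j2 at −2.66.

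Short RNA and pseudogene rows had the most extreme values, which depend on the pseudocount because some groups were at or near 0. Mir8114 was at 12.85, Mir1934 at 8.21, Mir7-1 at 4.99, Mir3062 at −4.49 and Gm5424 at −4.52. Gm5424 was at 0.837 and 6.97 TPM in KO at D7, and its fall in KO was not called without the higher of those 2 libraries. Mir3062 was no longer called under 10 alternatives.

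In the allele columns, which the gene tests did not use, 2 autosomes stood apart from wt in all KO libraries. The median share of cast on chromosome 12 was 0.328 and 0.336 in KO at D7 and 0.336 and 0.335 at D15, against 0.602 to 0.610 in wt (403 genes). The wt libraries were themselves off balance on chromosome 12, since on the other autosomes they were at 0.465 to 0.550. On chromosome 19 the median share of cast in KO was 0.631 and 0.627 at D7 and 0.635 and 0.633 at D15, against 0.485 to 0.493 in wt (370 genes). The difference from wt and that between the days were not tested.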

How the results depend on the processing

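Counts depended most on the pseudocount and the fold minimum. With no fold minimum 4514 genes were higher and 4937 lower in KO, and the change differed from wt positively in 3887 and negatively in 4482. A pseudocount of 0.1 gave 696 higher genes in KO (X 34, autosomes 660) and 756 more positive than wt, and a pseudocount of 5 gave 121 higher and 203 lower (X 5 higher, autosomes 116 higher and 195 lower) and 181 and 249 against wt. Without short RNA rows, an alternative chosen after seeing the data, 645 genes were higher (autosomes 612) and 785 more positive than wt. Pseudocounts of 0.1 and 5 gave 63.4% and 37.4% higher calls. Of the 761 main calls 322 were also called with a pseudocount of 5 and 708 without short RNA rows.

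The X-linked median was 0.01165 with no filter, 0.1269 rescaled to the median autosomal gene and 0.1428 without short RNA rows, and the autosomal median turned to 0.008905, 0.05251 and 0.07466. The change in X allele share was 0.001217 with no scaling and 0.000826 at 10 TPM or more. The cause of these moves was not tested. List medians changed sign for the cardiac factors and the Hox genes with the filter at 4 libraries (−1.787 and −0.1495), for neuronal genes with no filter (0.05512), rescaled (0.005611) and without short RNA rows (0.0192), and for transition regulators without KO D7 replicate 2 (−0.02224 to 0.05203 over the KO libraries left out).

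Leaving out each library in turn gave 423 to 446 genes higher and 330 to 352 lower in KO, and 468 to 553 more positive and 408 to 465 more negative than wt; a lone library was assumed to vary like the other groups. The replicate numbers did not pair the samples (correlations of deviations −0.00185 in KO and −0.0424 in wt). A replicate block gave 775 called genes in KO and 920 against wt, with all main calls among them. For named genes 1111 of the recomputed values kept direction and side of the threshold, 24 lost the call and 11 gained it. Depth is unknown, so no limit of detection can be given.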

Other observations

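Some smaller groups held genes with clear changes in KO. Irf1, a transcription factor of the interferon response, was at 35.4 and 31.5 TPM at D7 and at 73.9 and 74.3 TPM at D15, and Bst2, a membrane protein that tethers viruses, at 136 and 138 TPM and then at 287 and 269 TPM. In wt Irf1 went from 74.1 and 73.9 TPM to 46.3 and 49.4 TPM and Bst2 from 216 and 214 TPM to 132 and 138 TPM, neither of them called, and for both genes the change differed between KO and wt (1.75 and 1.69 on the log2 scale). Aldoc, a glycolytic enzyme, rose in KO from 10.2 and 10.4 TPM to 29 and 30 TPM, with 18.6 and 17.4 TPM and then 11.6 and 11.2 TPM in wt.

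Among imprinted genes Phlda2, a brake on placental growth, rose from 10.8 and 11.7 TPM to 32.5 and 30 TPM, and stayed under the wt range of 41.2 to 43.5 TPM. Mest, expressed from the paternal copy, rose from 67 and 63.5 TPM to 140 and 138 TPM. Cldn6, a tight junction protein of early epithelia, fell in both genotypes, in KO from 506 and 507 TPM to 176 and 186 TPM and in wt from 117 and 116 TPM to 43.6 and 45.5 TPM, and the difference of the changes was −0.11, past the FDR (limma, adjusted p = 0.097) but under the fold minimum, so that it was not called. Egr1, an immediate early gene, also fell in both, more so in wt, where it went from 21.1 and 20.5 TPM to 2.29 and 2.82 TPM, against 26.8 and 25.9 TPM and then 10.5 and 10.9 TPM in KO. Atf3, a stress-induced factor, fell in KO from 38.8 and 37.3 TPM to 11.7 and 12.2 TPM and was at 2.47 to 4.63 TPM in wt.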
